A study of Mus musculus with 10 samples.

Results

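Basement membranes are thin sheets of matrix that underlie epithelia and wrap vessels, muscle fibres, fat cells and Schwann cells, and many mesenchymal cells also make their components. The genes followed here are 10 that encode such components, chosen by name as the basement membrane collagens, laminins, nidogen and perlecan among the 25239 gene symbols of the count table: Col4a1, Col4a2, Col15a1, Col18a1, Lama2, Lama4, Lamb1, Lamc1, Nid1 and Hspg2. All 10 were found and all 10 passed the filter on low counts. They were chosen with earlier results of these data known. Other genes of the same families, such as Nid2, Lamb2, Lamc3 and Col4a5, are outside the 10 and are given further below. RNA was measured in 10 libraries from cells sorted by fluorescence out of the calvarial sutures (fibrous joints between skull bones) of mice at postnatal day 7, which the labels call calvarial stem cells. The labels put 5 libraries in a population called DDR2-plus, whose name carries that of the collagen receptor DDR2, and 5 in a population called PSC, which the labels do not spell out, each numbered 1 to 5. The labels give wild type as the genotype of both populations, while the protocol names Ctsk-Cre mice, in which the promoter of the cathepsin K gene drives the Cre recombinase. Whether the 5 animals of the protocol were shared between populations or pooled is not given in the sources used here, and every p-value below reflects just how much these libraries spread, which may be technical.

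The sheet is built from networks. Laminins are cross-shaped trimers of an alpha, a beta and a gamma chain that bind cells through integrins and dystroglycan and join into a first lattice. Type IV collagen, in its common form a trimer of alpha1 and alpha2 chains, makes a second lattice that is crosslinked by covalent bonds. Nidogens and the heparan sulfate proteoglycan perlecan link the lattices, and collagens XV and XVIII attach the sheet to the matrix beneath it and carry the fragments restin and endostatin at their ends. Chondrocytes are surrounded by a pericellular matrix that holds several of the same proteins, perlecan among them.

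Col4a1 and Col4a2 lie head to head, and the sequence around their starts is shown because the pair shares it while its counts moved by different amounts. The RefSeq windows of 250 bases before to 50 after each start (GRCm38.p6, the assembly of mm10) overlap in the 78 bases at chr8:11312777-11312854, printed on the plus strand. The capitals mark the 22 bases from the annotated start of Col4a2, which is read to the right, to that of Col4a1, which is read to the left.
Col4a1-Col4a2: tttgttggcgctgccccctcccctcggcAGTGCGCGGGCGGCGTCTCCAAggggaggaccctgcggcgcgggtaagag
Windows were found for 8 of the 10 genes, 9 windows in all, since Col18a1 has 2 annotated starts. Those of Col18a1, which fell by the largest factor of the 10, of Nid1, which fell, and of Hspg2, which rose, are printed 5′ to 3′ on the strand of the gene. Capitals mark GGGCGG on either strand, the core of the GC box that binds SP1. The first 2 lines are Col18a1 at chr10:77166481-77166780 and chr10:77113656-77113955 (both minus strand), followed by Nid1 at chr13:13437352-13437651 and Hspg2 at chr4:137468553-137468852 (both plus strand).
Col18a1 upstream start: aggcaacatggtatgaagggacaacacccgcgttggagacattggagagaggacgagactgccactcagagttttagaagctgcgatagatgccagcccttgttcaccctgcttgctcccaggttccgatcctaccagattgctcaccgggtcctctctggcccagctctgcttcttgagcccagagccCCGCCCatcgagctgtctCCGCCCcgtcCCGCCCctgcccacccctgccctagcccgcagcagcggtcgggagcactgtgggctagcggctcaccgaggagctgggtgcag
Col18a1 downstream start: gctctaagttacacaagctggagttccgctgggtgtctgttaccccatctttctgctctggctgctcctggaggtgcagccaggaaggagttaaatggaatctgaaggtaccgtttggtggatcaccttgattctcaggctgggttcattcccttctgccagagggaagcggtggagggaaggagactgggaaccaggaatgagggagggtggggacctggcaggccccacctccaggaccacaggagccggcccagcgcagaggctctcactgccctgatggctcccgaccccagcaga
Nid1: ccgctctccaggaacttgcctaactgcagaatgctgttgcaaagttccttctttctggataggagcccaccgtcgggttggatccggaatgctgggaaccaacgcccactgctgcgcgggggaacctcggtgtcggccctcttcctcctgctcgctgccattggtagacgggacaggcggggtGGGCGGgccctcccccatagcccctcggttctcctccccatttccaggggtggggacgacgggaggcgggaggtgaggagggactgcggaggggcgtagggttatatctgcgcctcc
Hspg2: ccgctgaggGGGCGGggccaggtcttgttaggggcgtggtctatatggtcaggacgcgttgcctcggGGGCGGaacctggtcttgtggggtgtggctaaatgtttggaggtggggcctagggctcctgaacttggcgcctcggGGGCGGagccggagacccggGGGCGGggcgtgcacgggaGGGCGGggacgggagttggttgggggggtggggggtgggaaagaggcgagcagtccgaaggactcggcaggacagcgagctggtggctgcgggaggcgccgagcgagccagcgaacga
The motif was present in 7 of the 9 windows, with 5 copies in that of Hspg2, 3 in the upstream window of Col18a1, 1 in that of Nid1 and 0 in the downstream window of Col18a1. Of all 32851 windows of this length, 35.7% held it. The windows of Col4a1 and Col4a2 overlap, and the only copy in that of Col4a1 is also 1 of the 3 in that of Col4a2. A gene count does not tell transcripts of the 2 Col18a1 starts apart.

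Total counts per library ran from 43419129 to 62021992, so that 1 count was worth 0.0146 to 0.0249 CPM (counts divided by a library size that TMM, a factor for differences in RNA composition, has corrected). Col1a1 and Col1a2, which encode type I collagen, held 4.56% to 8.24% of counts in DDR2-plus and 21.5% to 23.7% in PSC. Ddr2 mRNA averaged 112 ± 3.55 CPM in the DDR2-plus libraries and 152 ± 10.7 CPM in the PSC libraries (SD, n = 5 each). The population that carries the name thus had the lower mRNA level (log2 fold change -0.44, SE 0.0652; edgeR adjusted p = 0.000165). These libraries do not measure the protein. Of 10 markers of suture mesenchyme, 6 were lower and 1 higher in DDR2-plus, with summed levels of 1047 to 1624 CPM against 4127 to 5610 CPM in PSC. Of all tested genes, 19.0% were lower and 20.1% higher in DDR2-plus, the background for this and the marker counts below. The gap between the suture sums came mostly from Postn, which averaged 669 against 3835 CPM (DDR2-plus first). Prrx1, Prrx2, Twist1, Ctsk and Pdgfra also fell, by smaller factors and at lower levels. Axin2 was the higher gene, and Gli1, Six2 and Runx2 did not pass. All 10 chondrocyte markers were higher in DDR2-plus, at 89367 to 124091 CPM in sum against 10406 to 26017 CPM. The 8 neuron and pineal markers were also all higher, at 120 to 254 CPM against 1.90 to 6.30 CPM, and 5 of 9 tested Schwann cell markers were higher, with the list at 481 to 924 CPM against 349 to 382 CPM. Cells that carry basement membranes of their own were represented as follows. Endothelial markers summed to 36.2 to 65.6 CPM (DDR2-plus) and 33.3 to 50.7 CPM (PSC), with 3 of 8 tested higher and 2 lower. The sums hide opposite changes. Means in DDR2-plus and PSC were 4.32 and 0.217 CPM for Pecam1, 12.5 and 2.43 for Kdr and 5.69 and 2.45 for Egfl7. For Cdh5 they were 4.49 and 11.8 CPM, and for Tek 7.84 and 12.1 CPM. Pericyte and smooth muscle markers summed to 849 to 1094 CPM and 714 to 774 CPM, with 2 of 9 higher and 6 lower, and the sum was carried by Cspg4 and Acta2, the 2 that were higher. The 6 that were lower moved like most of the basement membrane genes. Kcnj8 averaged 7.68 CPM in DDR2-plus against 47.7 in PSC, Abcc9 9.25 against 29.9 and Notch3 7.23 against 19.8. Myh11 was at 0.728 against 17.5 CPM, Mcam at 4.36 against 9.73 and Pdgfrb at 122 against 171. Rgs5 and Higd1b stayed at or under 5.59 CPM in every library. Skeletal muscle markers summed to 22.4 to 57.8 CPM and 10.4 to 22.8 CPM, with 2 of 7 tested higher, epithelial markers to 18.8 to 80.2 CPM and 3.89 to 10.4 CPM, with 4 of 4 higher, and adipocyte markers to 55.3 to 83.7 CPM and 86.1 to 203 CPM, with Adipoq at or under 2.48 CPM in every library, 1 of 6 tested higher and 2 lower. Macrophage markers summed to 4.20 to 10.02 CPM and 4.398 to 10.2 CPM, with 4 of 4 tested not passing. Of all markers, Esrp1, Pax7 and Slc17a6 had no count in any PSC library. What part other cells had in the results below was not tested.

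Transcripts of most of these basement membrane genes were less abundant in DDR2-plus than in PSC. This holds for the 10 chosen genes: of the same families, Nid2 and Lamc3 were higher, and Lamb2 and Col4a5 did not pass. Of the 10, 8 fell, 1 rose and 1 did not pass the test (edgeR quasi-likelihood test, Benjamini-Hochberg adjusted over 15416 genes, threshold 0.05), where 39.1% of all tested genes passed, 19.0% as lower in DDR2-plus and 20.1% as higher. The median log2 fold change, DDR2-plus over PSC, was -1.48 over the 10 genes and 0.04 over all tested genes. At least 2-fold lower were 7 of the 10, against 6.01% of all tested genes, and the 5 libraries of one population did not overlap those of the other in 8 of the 10, each time with DDR2-plus lower. Such separation was seen in 30.1% of all tested genes, 14.6% with DDR2-plus lower and 15.5% with it higher. In such bulk samples fewer cells of a type and less RNA per cell cannot be told apart. The count of 8 lower genes was the same in 17 alternative settings of tool, scaling, filter, block and left-out library.

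**Figure D1:**
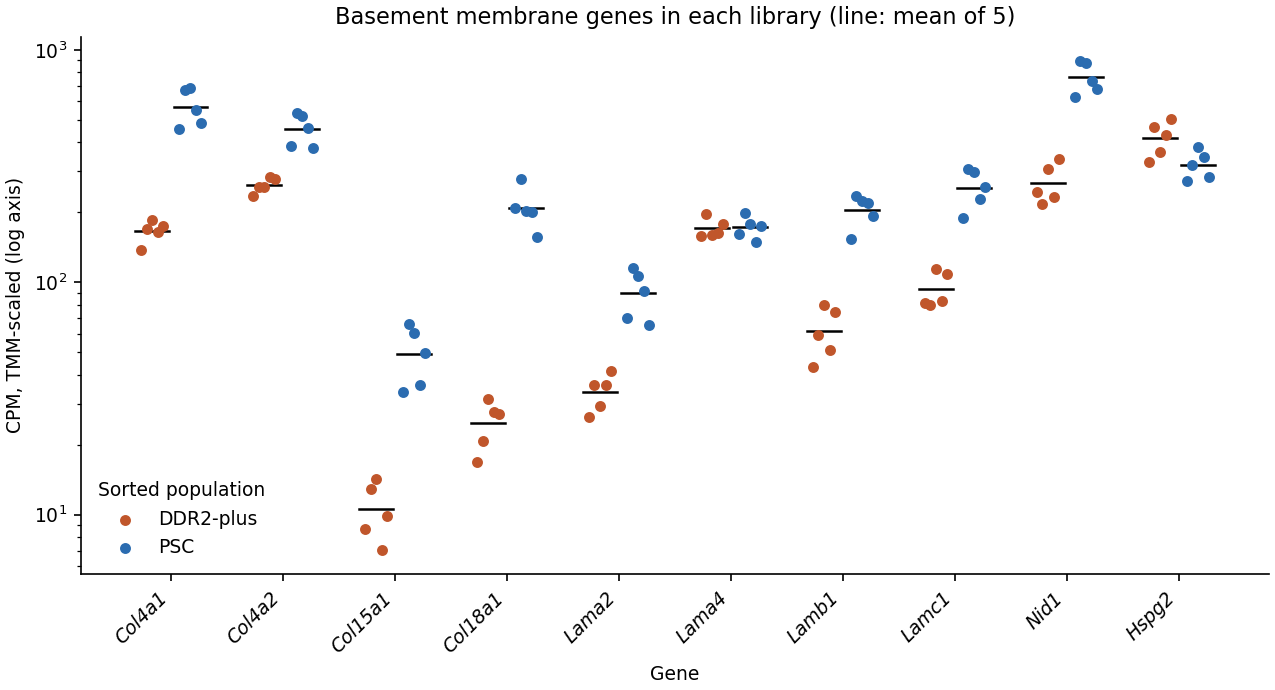
Level of each basement membrane gene (CPM after TMM scaling, log axis) in the 5 DDR2-plus and 5 PSC libraries, with a line at the mean of each population. The populations are apart in 8 genes, overlap in Lama4 and Hspg2, and Hspg2 has its mean on the DDR2-plus side.

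The chains of type IV collagen both fell, but not equally. Col4a1 (mm10 chromosome 8, 11198423 to 11312826, minus strand), which encodes the alpha1 chain, was at 138, 169, 185, 165 and 175 CPM in DDR2-plus libraries 1 to 5 and at 457, 671, 684, 549 and 484 CPM in PSC libraries 1 to 5. All DDR2-plus libraries lay below all PSC libraries, and the level was 3.42-fold lower (log2 fold change -1.77, SE 0.124; edgeR adjusted p = 8.29e-07). Col4a2 (chromosome 8, 11312805 to 11449287, plus strand), the gene of the alpha2 chain, was at 234, 256, 256, 285 and 278 CPM in DDR2-plus, against 386, 536, 517, 460.0 and 377 CPM in PSC. The populations were again apart, with Col4a2 1.74-fold lower (log2 fold change -0.80, SE 0.106; edgeR adjusted p = 7.23e-05). Inside each library, which needs no scaling between libraries, the counts of Col4a1 over those of Col4a2 came to 0.589, 0.660, 0.723, 0.581 and 0.629 in DDR2-plus and to 1.18, 1.25, 1.32, 1.19 and 1.29 in PSC. The alpha1 gene thus had fewer counts than the alpha2 gene in every DDR2-plus library and more in every PSC library. The difference in the log2 ratio was -0.97, a 1.97-fold change (exact permutation test, two-sided; p = 0.00794, and 5 against 5 libraries allow no smaller one; adjusted p = 0.0111 over the 7 ratios tested). All 7 ratios were chosen with earlier results of these data known, so their p-values give no independent support. The annotated exons of Col4a1 and Col4a2 share only the 22 bases in capitals above.

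Collagens XV and XVIII, the multiplexins, showed the largest factors. Col18a1 (chromosome 10, 77052178 to 77166548, minus strand), the gene of collagen XVIII and endostatin, was at 16.8, 20.8, 31.4, 27.7 and 27.0 CPM in DDR2-plus, against 208, 278, 202, 200.2 and 156 CPM in PSC. The lowest PSC library was well above the highest DDR2-plus library, and the level was 8.43-fold lower in DDR2-plus (log2 fold change -3.08, SE 0.187; edgeR adjusted p = 4.22e-07). Col15a1 (chromosome 4, 47208161 to 47313167, plus strand), the gene of collagen XV, was less abundant, at 8.68, 12.8, 14.2, 7.07 and 9.84 CPM in DDR2-plus, against 33.6, 66.3, 60.3, 36.1 and 49.6 CPM in PSC. Here too the populations were apart, with a 4.67-fold lower level in DDR2-plus (log2 fold change -2.22, SE 0.234; edgeR adjusted p = 1.18e-05). The counts of Col15a1 over Col18a1 came to 0.517, 0.616, 0.452, 0.256 and 0.365 in DDR2-plus and to 0.162, 0.239, 0.298, 0.180 and 0.318 in PSC. DDR2-plus 4 lay within the PSC range, and the geometric means were 0.422 and 0.231 (exact permutation test, two-sided p = 0.0317, adjusted p = 0.037 over the 7 ratios). The call on this ratio was lost, with adjusted p between 0.0556 and 0.0741, without any of DDR2-plus 1, 2, 3 or 5 or PSC 1, 2 or 4.

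Among the laminin chains, 3 fell and 1 did not pass. Lamc1 (chromosome 1, 153218922 to 153332786, minus strand), the gamma1 chain of most laminins, was at 81.0, 79.8, 114, 83.1 and 108 CPM in DDR2-plus, against 188, 306, 298, 229 and 256 CPM in PSC, 2.74-fold lower (log2 fold change -1.45, SE 0.147; edgeR adjusted p = 8.6e-06). Lamb1 (chromosome 12, 31265234 to 31329644, plus strand), the beta1 chain, was at 43.0, 59.5, 79.7, 51.0 and 74.4 CPM in DDR2-plus, against 153, 234, 225, 219 and 193 CPM in PSC, 3.33-fold lower (log2 fold change -1.73, SE 0.17; edgeR adjusted p = 6.78e-06). In both genes DDR2-plus libraries 3 and 5 were the highest of their population, and still lay below all PSC libraries. Lama2 (chromosome 10, 26980036 to 27619758, minus strand), the alpha2 chain of muscle and nerve laminins that is mutated in a congenital muscular dystrophy, was at 26.2, 36.0, 29.3, 36.3 and 41.5 CPM in DDR2-plus, against 69.9, 115, 106, 91.7 and 65.6 CPM in PSC. It was 2.65-fold lower without overlap (log2 fold change -1.40, SE 0.171; edgeR adjusted p = 3.86e-05).

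Lama4 (chromosome 10, 38965515 to 39110188, plus strand), the short alpha4 chain found in laminins of vessels and mesenchyme, was at 158, 196, 159, 162 and 178 CPM in DDR2-plus, against 162, 198, 179, 148 and 174 CPM in PSC. The populations overlapped over most of their range. Its log2 fold change was -0.01, with a 95% interval of -0.21 to 0.18 (SE 0.0898; edgeR adjusted p = 0.923), an interval that does not reach the size of the change in any of the 8 genes that fell. With scaling by library size alone, which shifts the median of all tested genes from 0.04 to 0.31, Lama4 passed as higher at 0.25 (edgeR adjusted p = 0.0282). Read against Lama4 in the same library, Lama2 had 0.166, 0.183, 0.184, 0.223 and 0.233 counts per Lama4 count in DDR2-plus and 0.432, 0.580, 0.593, 0.618 and 0.376 in PSC. The ratio differed 2.60-fold between the populations, with no overlap (exact permutation test, two-sided p = 0.00794, adjusted p = 0.0111 over the 7 ratios). The ratio of Lamb1 to Lamc1, whose products sit in the same trimer, differed less, 0.651 in DDR2-plus against 0.805 in PSC (geometric means; exact permutation test, two-sided p = 0.00794, adjusted p = 0.0111). The populations did not overlap but nearly touched, with DDR2-plus 2 at 0.746 and PSC 3 at 0.754.

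The linker genes went in opposite directions. Nid1 (chromosome 13, 13437551 to 13512269, plus strand), which encodes nidogen-1, the bridge between the laminin gamma1 chain and type IV collagen, was at 244, 216, 308, 232 and 338 CPM in DDR2-plus, against 626, 894, 879, 734 and 677 CPM in PSC. All DDR2-plus libraries were below all PSC libraries, and the level was 2.84-fold lower (log2 fold change -1.51, SE 0.141; edgeR adjusted p = 4.86e-06). Hspg2 (chromosome 4, 137468769 to 137570630, plus strand), which encodes perlecan, was at 329.6, 465, 362, 429 and 504 CPM in DDR2-plus, against 271, 319, 383, 347 and 284 CPM in PSC. The populations overlapped, since DDR2-plus 1 and 3 lay within the PSC range, and the mean was 1.30-fold higher in DDR2-plus (log2 fold change 0.38, SE 0.126; edgeR adjusted p = 0.0296). This call was lost, with adjusted p between 0.0547 and 0.0862, without any of DDR2-plus 2, 4 or 5 or PSC 1, 2 or 5. The chondrocyte markers, all 10 higher in DDR2-plus, moved in the direction of Hspg2. Their part in it was not tested.

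**Figure D2:**
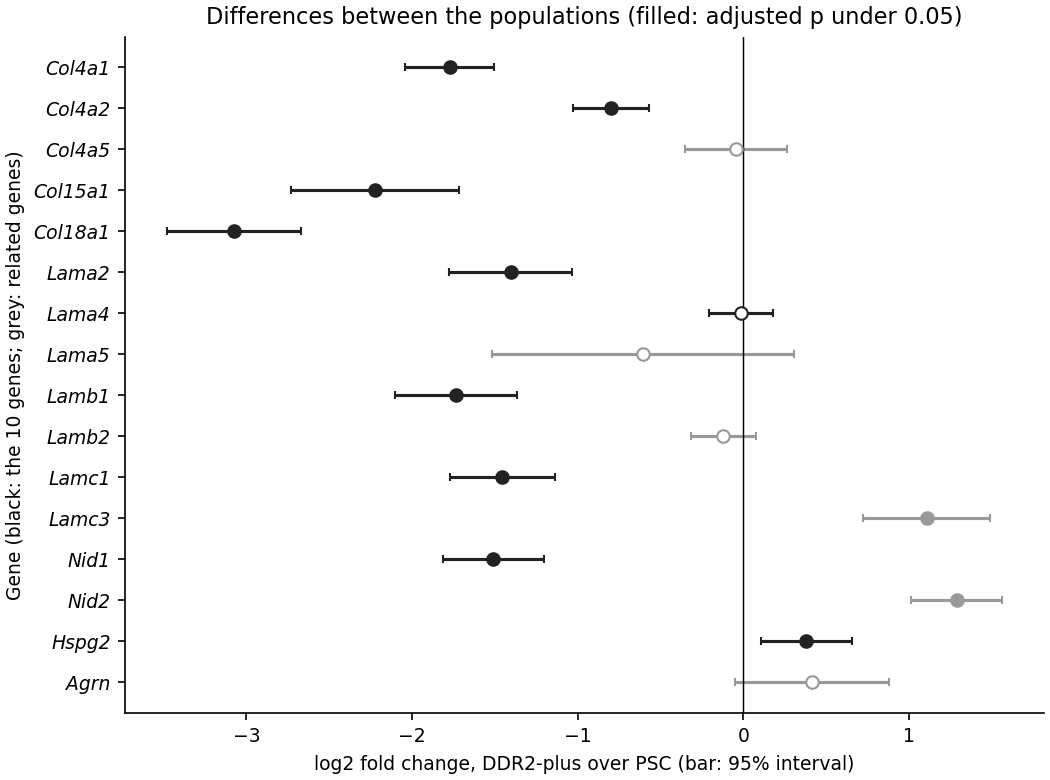
Log2 fold change between DDR2-plus and PSC (points) with its 95% interval (bars) for the 10 genes in black and for related chains and linkers in grey, with filled points for an edgeR adjusted p under 0.05. Col18a1 is farthest to the left at -3.08, Lama4 is at -0.01, and Nid2 at 1.29 is opposite Nid1 at -1.51.

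The relatives of these genes mostly did not pass. Of 11 other type IV collagen and laminin chains, 1 rose and 10 did not pass the edgeR test (median log2 fold change -0.12, and 0.15 with library size alone), while DESeq2 called 1 as lower and 2 as higher (20.1% and 22.7% of all tested genes). Lamb2, the beta2 chain that can take the place of beta1, averaged 365 ± 37.2 CPM (DDR2-plus) and 396 ± 40.2 CPM (PSC; SD, n = 5 each; log2 fold change -0.12, 95% interval -0.31 to 0.08; edgeR adjusted p = 0.323). Col4a5, which encodes the alpha5 chain of type IV collagen, was at 25.2 ± 2.44 and 26.0 ± 5.37 CPM (edgeR adjusted p = 0.844). Lamc3, the gamma3 chain, rose, with 46.9, 41.6, 30.9, 34.3 and 35.4 CPM in DDR2-plus and 16.9, 23.0, 11.99, 20.9 and 14.9 CPM in PSC (log2 fold change 1.11, SE 0.176; edgeR adjusted p = 0.000302). Nid2, whose product nidogen-2 can replace nidogen-1 as a linker, was at 716, 903, 646, 856 and 922 CPM in DDR2-plus, against 297, 389, 365, 342 and 262 CPM in PSC. It was 2.44-fold higher without overlap (log2 fold change 1.29, SE 0.126; edgeR adjusted p = 6.81e-06), and 8.45% of its exonic bases are shared with the gene Rtraf, whose reads cannot be told apart there. Agrn, which encodes the heparan sulfate proteoglycan agrin, averaged 49.9 ± 9.32 CPM (DDR2-plus) and 37.5 ± 12.5 CPM (PSC) and did not pass (log2 fold change 0.41, SE 0.214; edgeR adjusted p = 0.148).

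The 10 genes were also set against relatives inside each library. Nid2 had 2.94, 4.18, 2.10, 3.69 and 2.73 counts per Nid1 count in DDR2-plus libraries 1 to 5, and 0.475, 0.436, 0.416, 0.466 and 0.388 in PSC. Nidogen-2 transcripts thus gave more counts than those of nidogen-1 in 5 of 5 DDR2-plus libraries and fewer in 5 of 5 PSC libraries, a 6.99-fold difference in the ratio (exact permutation test, two-sided p = 0.00794, adjusted p = 0.0111 over the 7 ratios). Both genes had separated the populations in opposite directions, so their ratio was bound to do so and its p-value adds nothing. Lamb2 had 7.45, 6.89, 4.17, 7.47 and 5.10 counts per Lamb1 count in DDR2-plus and 2.29, 1.85, 1.81, 1.98 and 1.86 in PSC, a 3.11-fold difference without overlap (exact permutation test, two-sided p = 0.00794, adjusted p = 0.0111). Lama5, the alpha5 chain of epithelial and vessel laminins, was scarce, with 0.0127 counts per Lama4 count in DDR2-plus and 0.01996 in PSC (geometric means), and this ratio did not pass (exact permutation test, two-sided p = 0.111, adjusted p = 0.111).

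**Figure D3:**
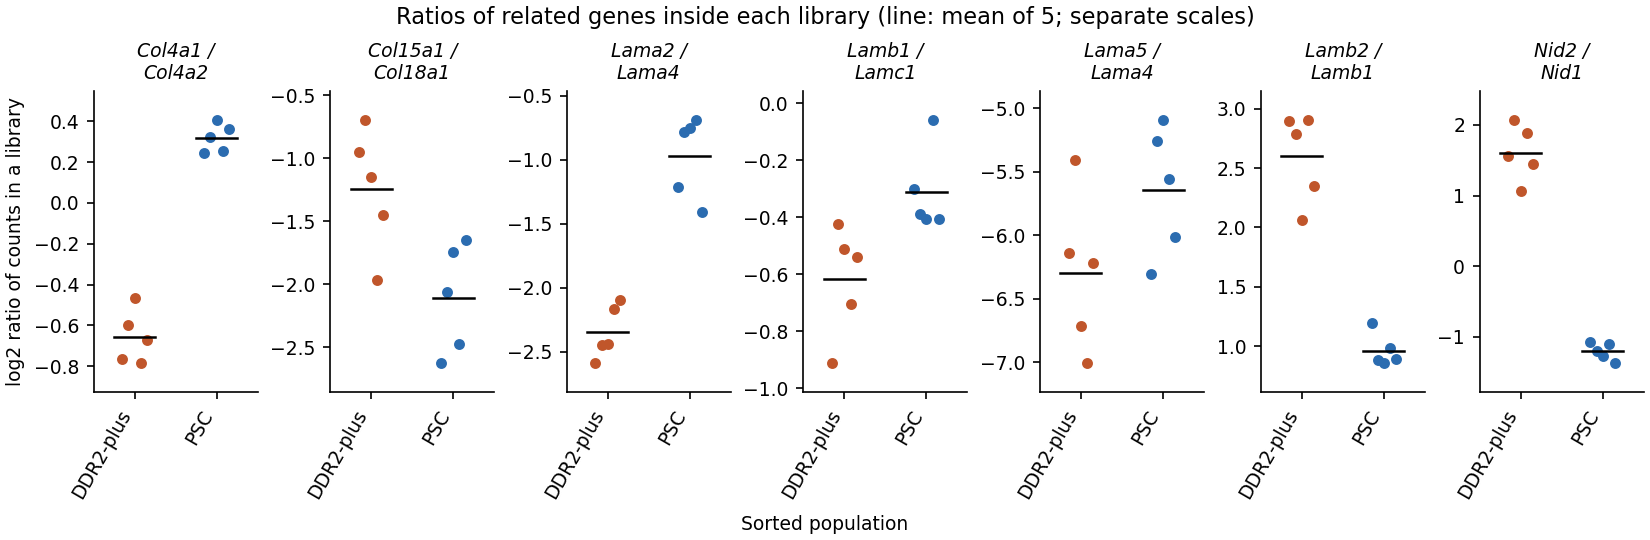
Log2 ratio of the counts of related genes inside each library (points, 5 per population) with a line at the mean, on a separate scale for each of the 7 ratios. The populations are apart in 5 ratios and overlap for Col15a1 over Col18a1 and for Lama5 over Lama4.

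Scaled to the length of the annotated exons, the make-up of the chain families differed. Among laminin alpha chains, Lama4 made up 84.4% ± 0.996 in DDR2-plus and 70.4% ± 4.43 in PSC, and Lama2 12.3% ± 1.68 and 26.7% ± 4.09 (share of CPM per kb; SD, n = 5 each). Lamb2 was the main beta chain in both populations, at 90.1% ± 2.22 and 75.7% ± 1.79. Lamc1 made up 62.1% ± 6.69 of the gamma chains in DDR2-plus and 90.8% ± 2.60 in PSC, with Lamc3 at 34.7% ± 7.14 and 8.69% ± 2.46. Of the type IV collagen chains, Col4a1 made up 33.7% ± 1.96 in DDR2-plus and 51.0% ± 1.22 in PSC, Col4a2 59.9% ± 1.96 and 46.1% ± 1.09, and Col4a5 5.68% ± 0.221 and 2.58% ± 0.208. Nid1 made up 19.97% ± 4.33 of nidogen transcripts in DDR2-plus and 63.1% ± 1.93 in PSC. The lengths of the transcripts present in these cells are not known. With the longest annotated transcript in place of all exons, a length chosen after seeing the data, Lamb1 came to 14.0% and 33.1% of the beta chains in place of 9.33% and 23.8%, and Lama5 to 0.634% and 0.814% of the alpha chains in place of 1.22% and 1.53% (DDR2-plus and PSC).

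**Figure D4:**
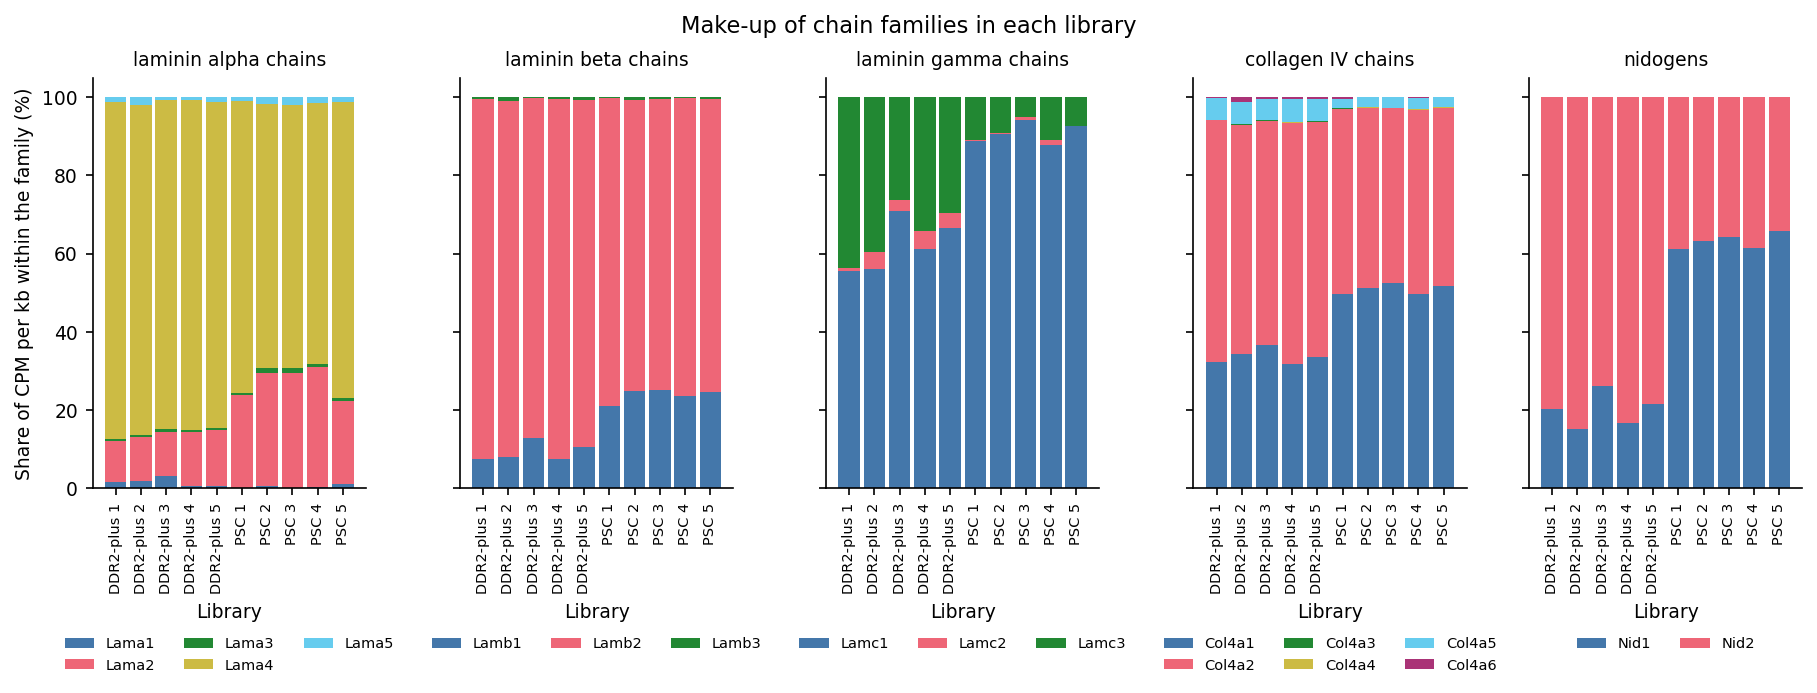
Share of each chain in its family, in percent of CPM per kb of annotated exon, in each of the 10 libraries (bars), for laminin alpha, beta and gamma chains, type IV collagen chains and nidogens. Nid2 takes up most of the nidogen bar in the 5 DDR2-plus libraries and Nid1 in the 5 PSC libraries, and Lamc3 takes 26.2% to 43.7% of the gamma bar in DDR2-plus.

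Across the 10 genes, levels per length were ordered differently in the populations. In PSC, Nid1 stood first with 110 ± 17.3 CPM per kb, followed by Col4a1 at 76.2 ± 14.0 and Col4a2 at 68.8 ± 11.04, and the ranges of neighbours in this order overlapped. Below them came Lamc1, Col18a1, Hspg2, Lamb1 and Lama4, from 30.9 down to 14.3 CPM per kb, each overlapping the next, and then Col15a1 at 7.75 ± 2.27 and Lama2 at 5.49 ± 1.33, which overlapped each other. Gaps without overlap lay between Col4a2 and Lamc1 and between Lama4 and Col15a1. In DDR2-plus, Col4a2 at 39.5 ± 3.03, Nid1 at 38.5 ± 7.60, Hspg2 at 29.2 ± 5.03 and Col4a1 at 22.3 ± 2.34 CPM per kb formed the top, each overlapping the next. Lama4 at 14.1 ± 1.36 and Lamc1 at 11.3 ± 1.97 overlapped each other and were apart from the genes on either side. Lamb1, Col18a1, Lama2 and Col15a1 closed the order, from 6.20 down to 1.66 CPM per kb. Col18a1 was at rank 5 of the 10 in PSC and at rank 8 in DDR2-plus, and Hspg2 at ranks 6 and 3. The order depends on the length used. By the longest annotated transcript, chosen after seeing the data, Nid1 led in both populations, Lama4 came to 28.2 CPM per kb in DDR2-plus and passed Col4a1 at 25.1, and Lamb1 at 35.4 passed Lamc1 at 33.5 in PSC. By that length the gaps of the DDR2-plus order lay below Col4a2, Col4a1 and Lamb1, Col18a1 was at rank 4 in PSC and 8 in DDR2-plus, and Hspg2 at ranks 8 and 3.

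In 8 of the 10 genes, the exceptions being Col18a1 and Hspg2, PSC libraries 2 and 3 were the 2 highest of the 5 PSC libraries, as they were in 10.3% of all tested genes. In DDR2-plus no such pair dominated: libraries 3 and 5 were the highest for Col4a1, Lamb1, Lamc1 and Nid1 (12.2% of all tested genes), and other pairs for the other 6 genes. As a measure of likeness, the root mean square difference between log2 CPM profiles, each centred on its mean over the 10 libraries, was taken against the 8873 other tested genes with a mean of at least 10 CPM. This measure includes the difference between the populations, and the libraries are shared by all genes. For Lamc1 the closest genes were Gpc3, which encodes the surface proteoglycan glypican-3, at 0.081, Nid1 at 0.106 and Palmd at 0.114 on the log2 scale. For Col4a1 they were Mest at 0.133, Igfbp5, which encodes an IGF-binding protein, at 0.155, and Gpc3 at 0.163, with Lamb1 at rank 4 (0.171). Col4a2, the neighbour and partner of Col4a1, was at rank 560 in likeness to it (0.496).

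Of 22 genes for other proteins of or near the basement membrane, 11 fell, 2 rose and 9 did not pass, where 19.0% of all tested genes were lower and 20.1% higher (median log2 fold change -0.66). With library size alone, which called 9.98% of all tested genes as lower and 35.2% as higher, 10 fell, 5 rose and the median was -0.39. Sparc, a collagen-binding matrix protein of bone that also acts on type IV collagen, averaged 19806 ± 1031 CPM where PSC had 37924 ± 2241 CPM (n = 5 each, SD; edgeR adjusted p = 4.73e-07). Fbln1, which encodes the matrix protein fibulin-1, was 3.18-fold lower, Col6a2, a chain of the type VI collagen that lies beside basement membranes, 2.23-fold, and Egflam, which encodes the dystroglycan ligand pikachurin, 2.69-fold (the highest edgeR adjusted p of the 3 was 5.74e-06). Smoc2, a relative of Sparc, was at 755 ± 62.5 and 727 ± 21.9 CPM without a call, and Npnt, the integrin ligand nephronectin, at 64.0 ± 14.1 and 77.5 ± 20.6 CPM (DDR2-plus first). Smoc2 passed as higher with library size alone (log2 fold change 0.33, edgeR adjusted p = 0.00299).

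Genes that assemble and crosslink these proteins fell in part. Of 12, 8 fell and 4 did not pass, where 19.0% of all tested genes fell (median log2 fold change -0.26). With library size alone 4 fell and 3 rose, where 9.98% and 35.2% of all tested genes did, and the median was 0.01. P4ha1 and Mia3, 2 of the 8, then lay above 0 without a call. Pxdn, the peroxidase that crosslinks type IV collagen by sulfilimine bonds, averaged 106 ± 16.2 CPM where PSC had 234 ± 38.1 CPM, 2.21-fold lower (n = 5 each, SD; edgeR adjusted p = 2.44e-05). Loxl2, a lysyl oxidase that crosslinks the same collagen through lysines, was 2.39-fold lower, and Creb3l1, a transcription factor of collagen synthesis and secretion, 3.39-fold (the higher edgeR adjusted p was 1.45e-06). P4ha2, a subunit of collagen prolyl hydroxylase, was 1.37-fold lower (edgeR adjusted p = 5.9e-05), whereas its partner subunit gene P4hb was at 1596 ± 81.1 and 1604 ± 53.9 CPM and Sec23a, a coat protein of secretory vesicles, at 155 ± 13.5 and 152 ± 23.8 CPM without a call. P4hb and Sec23a passed as higher with library size alone (log2 fold change 0.26 and 0.30, edgeR adjusted p = 0.00175 and 0.034).

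Receptors split. Of 18 genes, 8 fell, 5 rose and 5 did not pass, where 19.0% of all tested genes fell and 20.1% rose (median log2 fold change -0.36). With library size alone 7 were lower and 7 higher, where 9.98% and 35.2% of all tested genes were, and the median was -0.09. Itgb1, the beta1 integrin shared by laminin and collagen receptors, averaged 479 ± 19.2 CPM where PSC had 720.4 ± 50.6 CPM, 1.504-fold lower (n = 5 each, SD; edgeR adjusted p = 1.68e-05). Itgb4, the integrin chain of hemidesmosomes, was low and 5.47-fold lower still, at 3.96 ± 1.03 against 21.7 ± 2.87 CPM (edgeR adjusted p = 1.74e-06). The syndecans, heparan sulfate proteoglycans of the cell surface, went apart: Sdc4 was 4.402-fold higher, at 805 ± 130.4 against 183 ± 39.3 CPM, and Sdc1 1.81-fold lower, at 81.6 ± 3.29 against 147 ± 17.5 CPM (the higher edgeR adjusted p was 6.85e-06). Sdc2 stood at 382 ± 14.8 and 367 ± 23.5 CPM without a call, and passed as higher with library size alone (log2 fold change 0.33, edgeR adjusted p = 0.0014). Dag1, which encodes the laminin receptor dystroglycan, was at 243 ± 22.7 and 278 ± 17.2 CPM (log2 fold change -0.19; edgeR adjusted p = 0.0663) and passed as lower without DDR2-plus 2, DDR2-plus 5 or PSC 5 and in limma-voom (adjusted p between 0.0345 and 0.0467).

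Dystroglycan binds laminin through a sugar chain built by a series of enzymes. Of 12 genes of that series, 5 fell, 1 rose and 6 did not pass, so that 6 passed where 39.1% of all tested genes did, a share near the background (median log2 fold change -0.22). With library size alone 3 were lower and 2 higher, where 9.98% and 35.2% of all tested genes were, and the median was 0.05. Pomgnt2 averaged 14.3 ± 2.55 CPM where PSC had 25.3 ± 4.47 CPM, 1.77-fold lower (n = 5 each, SD; edgeR adjusted p = 0.00122). B4gat1 was 1.84-fold lower (edgeR adjusted p = 5.22e-05), but 85.3% of its exonic bases are shared with another annotated gene, and those reads cannot be told apart. Pomgnt1, with 11.7% of exonic bases shared, was 1.27-fold higher (edgeR adjusted p = 0.0114). Rxylt1, at 50.9 ± 7.55 and 60.7 ± 6.47 CPM, did not pass, and passed as lower without DDR2-plus 2 (edgeR adjusted p = 0.0315).

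Among the settings of the test, scaling by library size alone moved the fold changes most. It brought the median log2 fold change of the 10 genes from -1.48 to -1.21. Col4a2, the smallest of the 8 falls, lay between -0.86 and -0.53 over the 17 alternatives, and Col18a1, the largest, between -3.19 and -2.80.

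**Figure D5:**
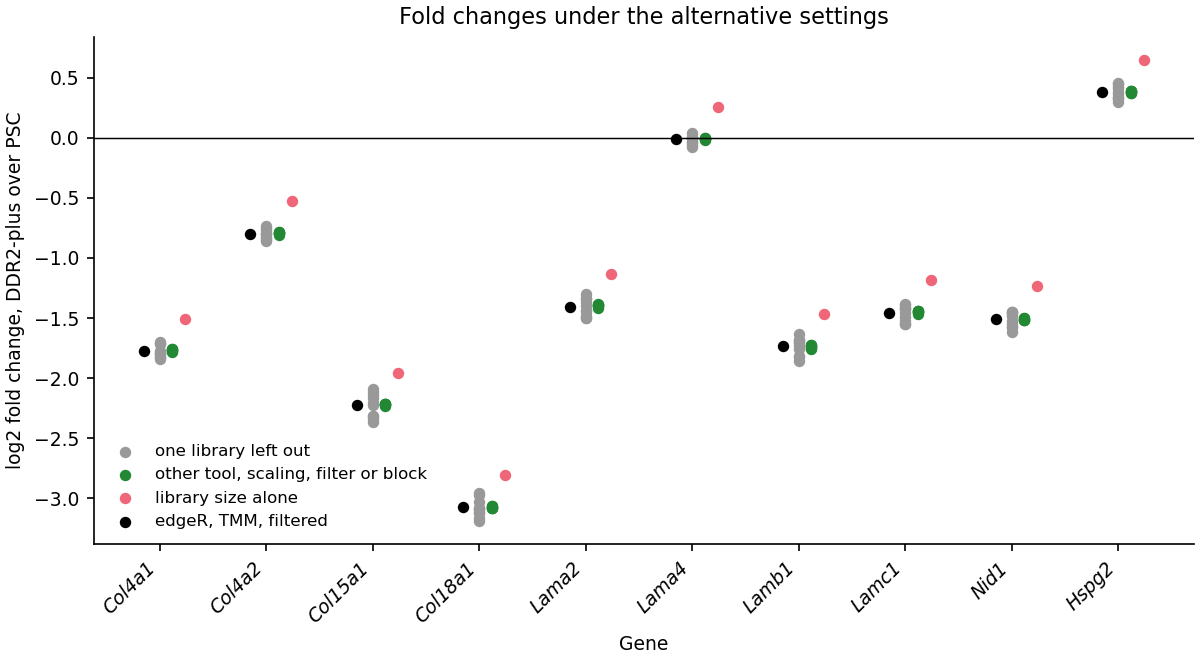
Log2 fold change of each gene under the edgeR test with TMM scaling (black), with 1 library left out (grey), with another tool, scaling, filter or the replicate block (green) and with library size alone (red). Library size alone moves all 10 genes upward together, and all settings keep Col4a1, Col4a2, Col15a1, Col18a1, Lama2, Lamb1, Lamc1 and Nid1 below 0.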

How the data were processed

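The authors deposited 1 table of whole-number counts per gene symbol for 10 libraries, not normalized, per the file's values. Per the labels' protocols, cDNA was amplified from total RNA with a template-switching kit and sequenced after tagging by a transposase, so strand is not marked. Per the submitters' processing notes, reads were placed on mm10 and DESeq was used. No source used here names the aligner, counting tool or annotation.

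From these counts, edgeR 4.0.16 (R 4.3.3; TMM, filterByExpr, quasi-likelihood test, no covariates) tested 15416 of 25239 genes, with Benjamini-Hochberg adjustment and a threshold of 0.05. The F statistic and the fold change gave standard errors and 95% intervals. The fit was tested on simulated data in which a small share of genes changed, in random directions. Many more genes were called in the real data, so the simulation does not test the scaling between the populations. DESeq2 1.42.0, limma 3.58.1 (voom), other scalings, no filter, a replicate block and leaving out each library were alternatives. Ratios of counts inside a library (0.5 added to both) were compared by exact permutation tests (scipy 1.17.1). Exon lengths and coordinates came from GENCODE annotation of GRCm38, promoter windows from RefSeq. The 10 genes, the gene lists and the ratios were chosen with earlier results of these data known. Named besides the 10 genes were the ratio genes and, per list, up to 4 with the smallest p past the threshold and a mean of 10 CPM or more in either group and the 2 most abundant without a call. Genes most like Col4a1 and Lamc1 were the 3 closest profiles. Agrn, P4ha1, Mia3 and the individual markers of cell types were named outside this rule, after their values were seen. Some genes that the rule names are not reported here. Amplified reads are not independent molecules.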

Additional observations from a re-analysis of the deposited data

Results flagged for a closer look

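Among 92 groups of 5 libraries screened for a single library far from the others, 1 stood out, where chance alone marks about 5% of such groups. Npnt was at 88.9 CPM in DDR2-plus 2, while the other 4 DDR2-plus libraries lay between 55.2 and 62.2 CPM, a gap of 0.791 of the whole range.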

How the results depend on the processing

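Over 17 alternative settings, each of the 8 lower genes (Col4a1, Col4a2, Col15a1, Col18a1, Lama2, Lamb1, Lamc1 and Nid1) was lower and past the threshold. Scaling by library size only gave 5421 higher and 1538 lower genes in place of 3096 and 2926, and 2 of the 10 genes were higher, Lama4 joining at 0.25, a shift in the median of all genes that this scaling itself makes. With 1 library left out, 0 to 1 of the 10 genes were higher, Hspg2 lay between 0.30 and 0.45 on the log2 scale, and the log2 ratio of Col15a1 to Col18a1 differed by 0.73 to 1.05, losing its call in 7 of 10 cases; fewer libraries were tested there. No called value of the 10 genes or the ratios changed sign. The replicate block, with the library number as a term, called 5742 genes in place of 6022 and changed no call among the 10 genes (Hspg2 at 0.38). Of the 12 assembly genes it called 7 as lower in place of 8. Libraries of the same number correlated in their deviations by 0.0289 to 0.0532, under the minimum of 0.1 for a pairing. Every library still correlated best with its own number, a hint of pairing. The labels use the same numbers in both populations but do not say that they share animals. The ratio tests took no account of the number. Counts of the 10 genes were at least 483 in each library, but the reads were amplified and the number of molecules behind them is not known.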
